A study of Mus musculus with 4 samples.

Results

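An adherent glial culture from the cerebrum of C3H/He pups aged 3 days, given no agent, was measured on 1 array of a series of 4. The untreated culture is described here on its own, by the genes whose signal stood above the array's background, and the 3 arrays of cultures given IFNγ, benztropine or both agents were not compared with it. Of the 22184 genes measured by probe sets with 1 gene symbol, 13015 (58.7%) exceeded background and 8572 (38.6%) were above it by more than 1 log2 unit. The sample labels call the cells primary astrocytes. All 6 genes chosen to mark the cells were far above background, and they belong to more than 1 cell class. The astrocyte water channel Aqp4 had a log2 signal of 12.47 and the astrocyte glutamate transporter Slc1a3 had 11.45. The microglial receptors Csf1r and Cx3cr1 had 11.65 and 10.38, the smooth muscle actin Acta2 had 12.28, and the macrophage mannose receptor Mrc1 had 10.20. Transcripts typical of glia and of macrophages, and the contractile gene Acta2, were thus all clear in RNA labelled as that of astrocytes.

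In such cultures the dissociated newborn cerebrum is grown in serum until a layer of dividing astroglia covers the flask, on which microglia and oligodendrocyte precursors settle. Shaking removes loosely attached cells, and the adherent cells are replated. Astrocytes take up glutamate, potassium and water and secrete lipoproteins and matrix. Microglia are the resident macrophages of the brain and live on the growth factor Csf1, which astrocytes supply. Meningeal fibroblasts and the mural cells of vessels come along with the dissected tissue, and most neurons do not survive the procedure.

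RNA of 3 independent cultures was mixed on the array, so the values are those of a mixture, with no measured spread and no test. Each value is a log2 signal of a probe set, made by the RMA method, which corrects background, sets the arrays to a common distribution and summarises the probes. A gene with several probe sets was taken by the highest of them. As background served the 95th percentile over 1401 probe sets for receptors of the nose (olfactory and vomeronasal), which glia are not known to use, and it lay at 6.69. Signals of different genes depend on the affinity of their probes, so a gene was read against the background and not against another gene. In a mixed culture, fewer cells of a type and less RNA per cell cannot be told apart.

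The array as a whole ran from 2.17 to 13.51, with a median of 6.66 over all 41345 probe sets and of 7.09 over the genes. Among probe sets named for at least 1 gene, 14495 of 25341 (57.2%) were above background. Of the 1401 receptor probe sets themselves, 70 were above the level by its definition and 12 were more than 1 log2 unit above it. Genes just outside the level were Ism2, Dnase1l2, Hipk4 and Cd163l1, and those just inside were Fastkd3, Thbs4, Htr2b and Sypl2, each at 6.69.

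**Figure D1:**
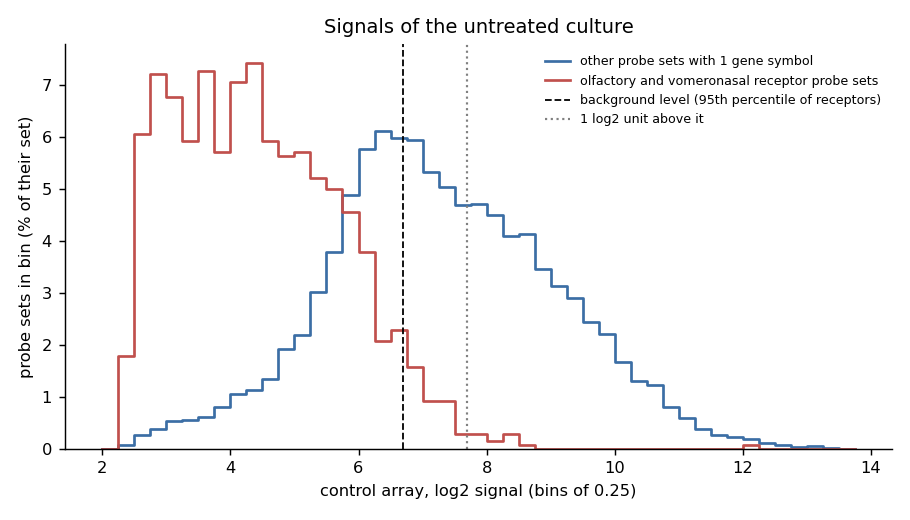
Share of probe sets in each bin of 0.25 log2 units of signal on the control array, for olfactory and vomeronasal receptor probe sets (red) and all other probe sets with 1 gene symbol (blue). The dashed line is the background level at 6.69 and the dotted line lies 1 log2 unit higher, at 7.69; the receptors have a median of 4.32 and 12 of 1401 lie past the dotted line.

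Genes that every cell uses and genes of unrelated organs were counted against the same level. Above background were 35 of 38 proteasome genes, 69 of 76 genes of the respiratory chain and 48 of 63 ribosomal protein genes, and all 3 reference genes of the real-time PCR (Eef1a1, Ap1g1 and Tpt1). Rps20 and Rps15, subunits of every ribosome, had 5.36 and 5.56, so a gene that was not above background is not thereby absent. In the other direction, 17 of 53 keratin genes and 10 of 15 skeletal and cardiac muscle genes were above background, but 0 of either set were above it by more than 1 log2 unit. Of 35 bitter taste receptors and 20 genes of the prolactin family, 0 passed either level. Keratin-associated protein genes, of the hair, were above background for 8 of 48 and by more than 1 log2 unit for 5, and defensin genes for 13 of 51 and for 1. Genes of other tissues thus lay within 1 log2 unit above background and in some families also past it. Both counts are given below for many sets, and a first count given alone has this limit. Of the 29 genes of liver, lens, testis, pancreas and other distant tissues, 4 were above background and 1 by more than 1 log2 unit: Odf1, a sperm tail gene, with probe sets at 12.41 and 6.41.

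The astrocyte programme was nearly complete. Of 36 genes typical of astrocytes, 32 were above background and 27 by more than 1 log2 unit, with a median of 9.87 beside 7.09 for all genes. Genes of ion and water transport were among them. Kcnj10, the inward rectifier channel that buffers potassium, had 11.36, the sodium pump subunit Atp1b2 had 12.12, and the bicarbonate cotransporter Slc4a4 had 12.07. Mlc1 and Hepacam, partners in the membrane of astrocyte endfeet, had 11.82 and 10.62. The gap junction protein Gja1 (connexin 43) had 10.46. These genes form the perivascular and junctional membrane of the astrocyte, and each lay more than 1 log2 unit above background.

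Metabolic and cytoskeletal astrocyte genes were also above background. Aldoc, the brain form of aldolase, had 11.52, Aldh1l1, a folate enzyme widely used as an astrocyte marker, had 9.55, and the intermediate filament gene Gfap had 9.98. Glul, the enzyme that turns glutamate into glutamine, had 11.49 by 1 probe set and 6.95 by the other. Some other astrocyte genes were closer to background. S100b had 7.03, the GABA transporter Slc6a11 had 7.08 and the growth factor receptor Fgfr3 had 7.60. The 4 genes not above background were Gjb6 (connexin 30) at 5.24, the NMDA receptor subunit Grin2c at 5.76, the tight junction gene Cldn10 at 6.33, and Dio2, the deiodinase that activates thyroid hormone, at 6.40. Slc1a2, the main glutamate transporter of the mature forebrain, was above background at 8.52.

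Genes of radial glia and astrocyte progenitors were present to the same extent, with 20 of 22 above background, 16 by more than 1 log2 unit and a median of 9.48. The intermediate filament genes Vim and Nes had 13.21 and 9.41, the brain fatty acid-binding protein Fabp7 had 12.39, and the matrix gene Tnc had 10.92. Vim had a second probe set at 10.80. The progenitor regulators Sox2, Notch1, Egfr and Pax6 had 10.66, 9.68, 9.55 and 9.19. Eomes, which marks intermediate neuronal progenitors, was not above background at 5.52, nor was the Notch ligand Dll1 at 6.27. Division genes were above background for 18 of 23 (78.3%), beside 58.7% of all genes. Only 4 (17.4%) were so by more than 1 log2 unit, below the 38.6% of all genes. Their median was 7.27, beside 7.09 for all genes. Pcna, the sliding clamp of replication, had 9.82, the cyclin Ccna2 had 8.99 and Mki67 had 8.60, while the mitotic genes Birc5, Bub1 and Foxm1 had 5.67, 6.26 and 6.50.

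**Figure D2:**
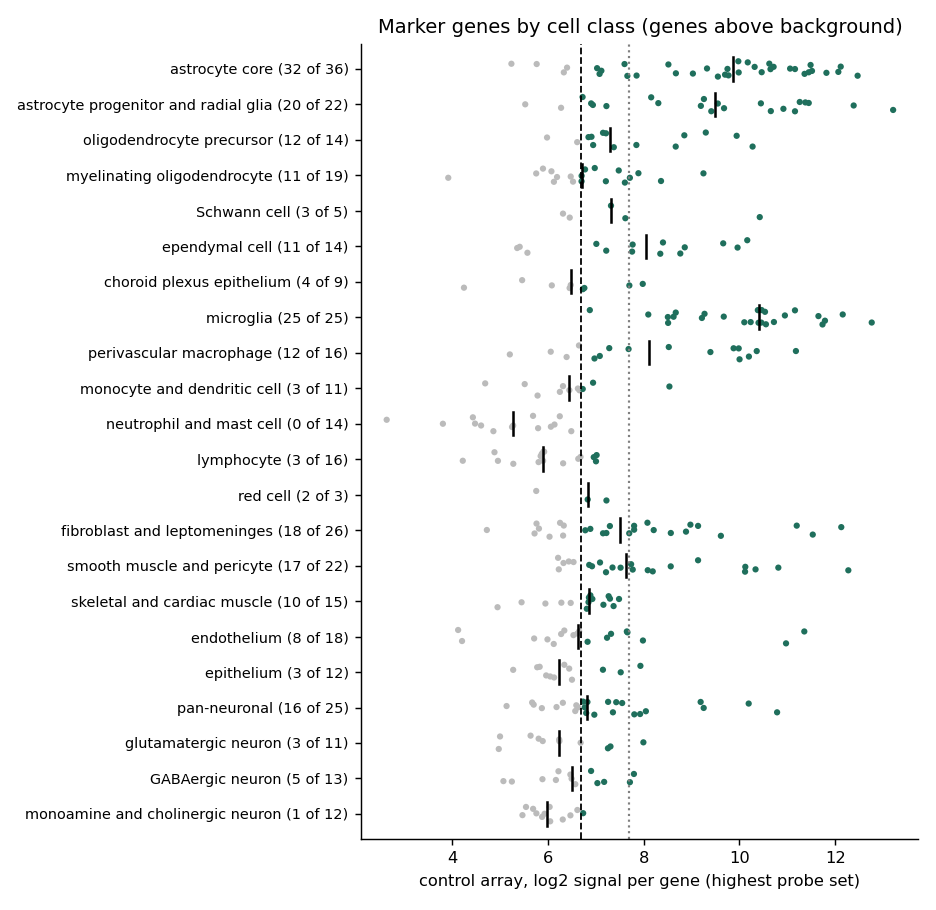
Log2 signal on the control array of each marker gene (points, highest probe set), by cell class, with the number above background of the number measured. Green points are above the background level (dashed, 6.69), grey points are not, the dotted line lies at 7.69 and the black bars are medians; microglia have 25 of 25 genes above background, astrocytes 32 of 36 and neutrophils and mast cells 0 of 14.

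Oligodendrocyte genes were counted apart for precursors and for myelinating cells. Of 14 precursor genes, 12 (85.7%) were above background and 6 (42.9%) by more than 1 log2 unit. Beside these stand 58.7% and 38.6% of all genes, so the second share was near that of genes at large. The bHLH factors Olig1 and Olig2 had 10.27 and 9.30 and Sox6 had 9.94. The platelet-derived growth factor receptor Pdgfra, by which precursors are usually recognised, had 7.15 and the proteoglycan Cspg4 (NG2) had 7.21, both within 1 log2 unit of background. Sox10, the lineage factor of all oligodendrocytes, had 6.61 and was not above it. Among genes of myelinating cells 11 of 19 were above background, near the share of all genes, and 4 by more than 1 log2 unit, with a median of 6.70. Mal, Cnp, Nkx6-2 and Cldn11 were those 4, at 9.25, 8.36, 7.89 and 7.71. The myelin proteins Mbp, Mog and Mobp had 7.21, 6.70 and 6.70, and Mag, Opalin, Ermn and the regulator Myrf were not above background. Olig2 is also used by astrocyte progenitors, so the list is not exclusive to oligodendroglia.

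Genes of motile cilia, as in the ependyma that lines the ventricles, were above background for 11 of 14 (78.6%), beside 58.7% of all genes. Of these, 9 (64.3% of the list) were so by more than 1 log2 unit, beside 38.6% of all genes. Foxj1, the master regulator of motile cilia, had 9.66, Tppp3 had 10.16, and the axonemal genes Enkur, Dynlrb2, Ccdc153 and Rsph1 had 8.86, 8.76, 8.40 and 8.35. Of 9 choroid plexus genes 4 were above background. The transthyretin gene Ttr, which dominates that epithelium, had 6.76, and Kl and Clic6 had 5.46 and 4.24. Of 5 Schwann cell genes, Pmp22 alone was more than 1 log2 unit above background, at 10.42.

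The microglial programme was seen for every gene measured. All 25 microglial genes were above background, 24 of them by more than 1 log2 unit, and their median was 10.40. The exception in the second count was the lectin Siglech at 6.87. Genes that separate microglia of the healthy brain from other macrophages were included. The purinergic receptors P2ry12 and P2ry13 had 10.55 and 10.10, the zinc finger factor Sall1 had 9.22, and Tmem119 had 8.10. Fcrls and Gpr34, also typical of microglia, had 10.46 and 8.50. Genes common to tissue macrophages were also above background. The cathepsin gene Ctss had 12.76, Cd68 had 12.16, Lyz2 had 11.79, the signalling adaptor Tyrobp had 11.16 and its partner Trem2 had 10.53. The complement genes C1qa, C1qb and C1qc had 10.95, 11.74 and 10.23.

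Genes of macrophages of the vessel wall and meninges were above background in part. Of 16 such genes, 12 were above background and 8 by more than 1 log2 unit, with a median of 8.10. Mrc1 had 10.20, the scavenger receptor Stab1 had 9.98, Ms4a7 had 10.00, the sialic acid-binding lectin Siglec1 had 9.39 and the transglutaminase F13a1 had 8.52. The defining genes Cd163, Pf4 and Clec10a had 6.06, 6.65 and 5.20 and were not above background, and Lyve1 had 7.08. The list thus does not settle whether these macrophages were present. Of 11 genes of monocytes and dendritic cells, 3 were above background and 1 by more than 1 log2 unit, Cd209a, with probe sets at 8.54 and 6.05. Ccr2 and Ly6c2, markers of blood monocytes, had 6.25 and 5.51. Among 14 genes of neutrophils and mast cells 0 were above background, and among 16 lymphocyte genes 3 were, 0 of them by more than 1 log2 unit. The T cell genes Cd3e and Cd3g had 5.87 and 4.95 and the B cell genes Cd79a and Ms4a1 had 5.85 and 5.28. The leukocyte signal of the culture was thus that of macrophages.

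Several macrophage genes carried near their start the core recognised by PU.1, the factor encoded by Spi1 (8.67 on this array) and needed by macrophages. The promoters of Mrc1 and Trem2 are shown as 1 marker gene of each macrophage type with the motif. The windows run from 250 bases before to 50 after the start in the RefSeq table for mouse build GRCm38.p6. Capitals mark the PU.1 core GAGGAAG, which in both windows was found on the reverse strand. In Trem2 they also mark the pattern TGANTCA, searched for AP-1 with any base at N and read there as TGAATCA. A match to this loose pattern is not thereby an AP-1 site. The 2 motifs did not overlap.
Mrc1 promoter, chr2:14229164-14229463, plus strand: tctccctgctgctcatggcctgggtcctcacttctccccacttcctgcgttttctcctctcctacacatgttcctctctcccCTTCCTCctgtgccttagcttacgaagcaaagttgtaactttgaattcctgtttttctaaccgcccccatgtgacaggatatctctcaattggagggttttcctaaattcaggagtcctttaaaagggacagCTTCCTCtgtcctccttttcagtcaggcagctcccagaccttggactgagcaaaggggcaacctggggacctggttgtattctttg
Trem2 promoter, chr17:48346151-48346450, plus strand: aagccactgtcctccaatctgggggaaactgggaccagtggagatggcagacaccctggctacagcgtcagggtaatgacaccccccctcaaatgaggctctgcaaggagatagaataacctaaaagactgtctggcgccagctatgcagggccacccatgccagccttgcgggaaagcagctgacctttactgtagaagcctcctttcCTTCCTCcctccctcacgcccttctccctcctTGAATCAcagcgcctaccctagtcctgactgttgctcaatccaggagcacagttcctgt
Searched on both strands, GAGGAAG was found in 15.4% of 27025 RefSeq promoter windows and TGANTCA in 8.97%. Among microglial genes with a window the PU.1 core was found in 7 of 17 (C1qc, Ctss, Fcrls, Itgam, Laptm5, P2ry13 and Trem2), among astrocyte genes in 1 of 27 (Gja1), and among all genes above background in 16.0%. These are matches of letters and say nothing of binding.

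Contractile genes were clear, and other genes of smooth muscle cells and pericytes were so only in part. Of 22 genes of smooth muscle cells and pericytes, 17 (77.3%) were above background and 11 (50%) by more than 1 log2 unit. The shares of all genes were 58.7% and 38.6%. The median of the list was 7.63, beside 7.09 for all genes. Genes of the contractile apparatus were among the 11. Acta2 had 12.28, the actin-binding proteins Tagln and Cnn1 had 10.81 and 10.34, and the myosin light chain Myl9 and tropomyosin Tpm1 had 10.12 each. Genes of the mature vessel wall were above background in part. The smooth muscle myosin Myh11 had 7.35 and the coactivator Myocd had 6.92, while desmin (Des), Actg2 and the kinase Mylk had 6.23, 6.21 and 6.32. The pericyte genes Rgs5 and Higd1b had 6.53 and 6.43 and were not above background, Kcnj8 and Abcc9 had 7.09 and 6.86, and the receptor Pdgfrb had 9.14. Myofibroblasts also use Acta2, Tagln and Cnn1, so the list does not settle which contractile cell was present. The regulators of these genes were measured as well, with Srf at 8.56 and its coactivators Mrtfa at 8.52 and Mrtfb at 9.13 (second probe set 6.20). The CArG box that Srf recognises was found in the promoters of 2 of 13 of these genes, Myl9 and Srf itself, and in 1.81% of all promoter windows.

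Fibroblast and leptomeningeal genes were mixed. Above background were 18 of 26 (69.2%), 13 of them (50%) by more than 1 log2 unit, beside 58.7% and 38.6% of all genes. The median of the list was 7.50. Fibronectin (Fn1) had 12.13, the growth factor binding protein Igfbp2 had 11.53, the proteoglycan osteoglycin (Ogn) had 11.20 and the meningeal factors Zic1 and Foxc1 had 8.98 and 8.21. The fibrillar collagens of this list, which define fibroblasts in most tissues, were above background, Col1a2 and Col3a1 by less than 1 log2 unit. Col1a1 had 8.57, Col1a2 had 7.22 and 4.82 by its 2 probe sets, Col3a1 had 6.88 and decorin (Dcn) had 7.29. The fibroblast genes Lum, Dpt and Fap had 4.72, 5.81 and 5.76, and the arachnoid and pial transporters Slc22a6 and Slc6a13 had 6.32 and 6.25. Fn1 and Igfbp2 are also made by cultured astrocytes.

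Endothelial and epithelial genes were above background less often than genes at large. Of 18 endothelial genes 8 were above background, fewer than the share of all genes, and 3 by more than 1 log2 unit. The transporters Slco1a4 at 11.36 and Slc2a1 at 10.97 (second probe set 6.75) were 2 of these, and glia also use Slc2a1. The junction and identity genes Pecam1, Cdh5, Cldn5, Tek and Tie1 had 6.65, 6.53, 6.12, 5.71 and 5.99, and none was above background. Of 12 epithelial genes 3 were above background and 1, Ocln at 7.93, by more than 1 log2 unit. Epcam and Cdh1 had 6.05 and 6.50.

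Pan-neuronal genes were above background about as often as genes at large and past the second level less often. Of 25 measured, 16 (64.0%) were above background, beside 58.7% of all genes, and 7 (28%) by more than 1 log2 unit, beside 38.6%, with a median of 6.82 beside 7.09. Stmn2, a microtubule regulator of growing axons, had 10.79, the dendritic protein Map2 had 10.19, the synaptic vesicle protein Syn2 had 9.19 and Uchl1 had 9.25 and 6.65 by its 2 probe sets. The neurofilament genes Nefl and Nefm had 5.67 and 5.70, Snap25, the vesicle fusion protein of every synapse, had 6.31, and Dcx, which marks young neurons, had 5.87. Tubb3, the usual neuronal tubulin, had 6.73, just above background. Of the 353 cell class genes measured, 214 were above background and 133 by more than 1 log2 unit.

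Most genes of transmitter identity were not above background. Of 11 genes of glutamatergic neurons 3 were above it, of 13 GABAergic genes 5, and of 12 genes of monoamine and cholinergic neurons 1. The vesicular glutamate transporters Slc17a7 and Slc17a6 had 6.24 and 5.80, the GABA-synthesising enzymes Gad1 and Gad2 had 6.57 and 6.17, and the tyrosine hydroxylase gene Th had 6.61. Camk2a at 7.99, Dlx2 at 7.80 and Npy at 7.71 were those more than 1 log2 unit above background. Neuropeptide precursors were above background for 15 of 31 and by more than 1 log2 unit for 6. The granule protein Scg3 had 11.15 and natriuretic peptide Nppc had 8.14, and Penk, Cck and Tac1 had 6.13, 5.68 and 5.77.

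Transcription factors were counted by lineage and by family. Of 770 factors in the families counted, 557 (72.3%) were above background and 315 (40.9%) by more than 1 log2 unit. The shares of all genes were 58.7% and 38.6%, so the second share was near that of all genes. The Zfp zinc finger genes have sequences that resemble each other and may share probes. Without them the counts were 267 (65.4%) and 163 (40.0%) of 408. All 22 factors of the astrocyte lineage were above background, 20 by more than 1 log2 unit, with a median of 9.68. Sox9, which sets the glial fate, had 11.16, and the nuclear factor I genes Nfia, Nfib, Nfic and Nfix, which turn on astrocyte genes, had 10.45, 11.38, 8.96 and 9.69 (second probe set of Nfix 7.07). Zbtb20 had 11.18, Stat3 had 10.77, and the Id proteins Id1 to Id4, which hold back neuronal bHLH factors, had 9.29, 11.22, 9.68 and 10.03. The Notch targets Hes5 and Hes1 had 6.72 and 8.31.

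Of 18 factors of the macrophage lineage, 17 were above background, 12 by more than 1 log2 unit, and Batf3, a factor of dendritic cells, was not at 6.24. Besides Spi1 and Sall1 these were Mef2a at 11.46, Mef2c at 9.94 and 7.73, Runx1 at 8.96, Ikzf1 at 8.52, and Irf8, which microglia require, at 9.01 and 6.33 by its 2 probe sets. Stromal factors were above background for 23 of 33 (69.7%), 16 (48.5%) by more than 1 log2 unit, beside 58.7% and 38.6% of all genes. The mechanical sensors Wwtr1 (TAZ) and Yap1 had 10.15 and 8.33 (second probe set of Yap1 5.21), their partner Tead1 had 9.64, and Prrx1, Twist1 and Snai2 had 8.72, 7.70 and 7.91. Tbx18, Tcf21 and Foxf2 had 6.22, 6.35 and 5.85. Neuronal factors were above background for 8 of 24, 3 by more than 1 log2 unit, with a median of 6.28. Neurod1, Neurod6 and Bcl11b had 5.64, 4.97 and 6.23. Sox4 had 8.40 and 5.78 by its 2 probe sets, Pou3f2 had 8.18 and Dlx2 had 7.80.

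**Figure D3:**
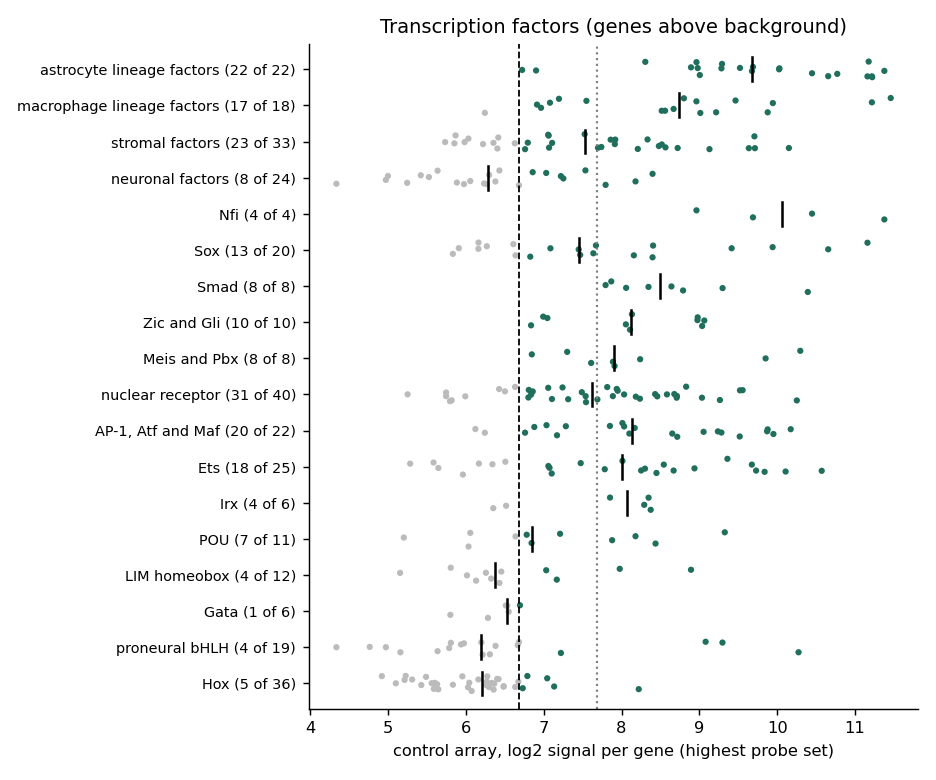
Log2 signal on the control array of transcription factor genes (points, highest probe set), for 4 lineage lists and for families, with the number above background of the number measured. Green points are above the background level (dashed, 6.69), grey points are not, the dotted line lies at 7.69 and the bars are medians; all 22 astrocyte lineage factors are above background, as against 5 of 36 Hox genes.

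Families of factors differed in how many members were above background. All 8 Smad genes, which carry TGF-beta and BMP signals, were more than 1 log2 unit above background, with Smad4 at 10.39. Stat genes were above background for 5 of 6, interferon regulatory factors for 6 of 7 and Tcf and Lef genes for 5 of 6. All 10 Zic and Gli genes were above background, 7 by more than 1 log2 unit. So were all 8 Meis and Pbx genes, 5 by more than 1 log2 unit. Nuclear receptors were above background for 31 of 40 and by more than 1 log2 unit for 20. The glucocorticoid receptor Nr3c1 had 10.25 and the clock regulator Nr1d2 had 9.56. Of the Hox genes, which pattern the hindbrain and spinal cord and are silent in the forebrain, 5 of 36 were above background and only Hoxa2, at 8.22, by more than 1 log2 unit. Of 6 Gata genes 1 was above background, and of 19 proneural bHLH genes 4 were, Olig1, Olig2, Atoh8 and Neurog2. Among regional factors of the forebrain and midbrain 12 of 17 were above background and 4 by more than 1 log2 unit, Lhx2, Otx1, Lmx1b and Otx2, at 8.89, 8.76, 7.98 and 7.70. Nkx2-1, of the ventral forebrain, had 6.19.

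Receptors were above background for 285 of 471 (60.5%) and by more than 1 log2 unit for 172 (36.5%), near the shares of all genes. Receptors for purines differed among themselves. P2ry6, P2ry12 and P2ry13 had 10.72, 10.55 and 10.10, P2ry2 and P2ry1 had 8.51 and 8.45, and P2ry10, P2ry14 and P2ry4 were not above background. Of the ATP-gated channels P2rx4 and P2rx7, both typical of microglia, had 10.39 and 9.40, and P2rx2 and P2rx3, of sensory neurons, had 6.03 and 5.73. Receptors of growth factors and guidance cues varied by family. Guidance receptors of the Robo, Unc5 and neuropilin kind were above background for 7 of 12, near the share of all genes, and Eph receptors for 9 of 13, but 2 of these by more than 1 log2 unit. All 4 Notch genes and all 9 plexins were above background, as were 12 of 14 receptors of the TGF-beta and BMP family, with Bmpr2 at 12.46. The endothelin receptor Ednrb, abundant in astrocytes, had 11.79, the neurotrophin receptor Ntrk2 had 10.03, and the FGF receptors Fgfr1 and Fgfr2 had 9.92 and 9.61. The lipoprotein receptors Lrp1, Sorl1 and Lrp2 had 11.31, 10.78 and 10.34, and 12 of 13 of that family were more than 1 log2 unit above background.

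Transmitter receptors differed by family. Of 16 ionotropic glutamate receptor genes 11 (68.8%) were above background, beside 58.7% of all genes. By more than 1 log2 unit 5 (31.25%) were, below the 38.6% of all genes. The AMPA subunits Gria1, Gria3 and Gria2 had 11.15, 10.85 and 8.87, and the NMDA subunits Grin2a and Grin2d had 6.30 and 6.11. Metabotropic glutamate receptors were above background for 1 of 7, and Grm3, the form of mature astrocytes, had 5.95. Of 21 GABA-A and glycine receptor genes 7 were above background, 5 by more than 1 log2 unit, with Gabrb1 at 9.58 and Gabrg1 at 8.60. Both GABA-B receptor genes were more than 1 log2 unit above. Serotonin receptors were above for 3 of 14, nicotinic subunits for 5 of 16, muscarinic receptors for 1 of 5 and dopamine receptors for 1 of 5, and in these 4 families 0 were above by more than 1 log2 unit. Immune receptors differed by family. TNF receptors were above background for 20 of 24, 12 by more than 1 log2 unit, and interleukin receptors for 18 of 35, 13 by more than 1 log2 unit. Of 22 chemokine receptors 8 were above background, and Cxcr4, Cx3cr1 and Ackr3 (10.53, 10.38 and 7.94) were the 3 past 1 log2 unit. The shared cytokine subunit Il6st (gp130) had 12.09, its partner Osmr had 10.40, the death receptor Fas had 11.09 and the TNF receptor Tnfrsf1a had 10.18.

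**Figure D4:**
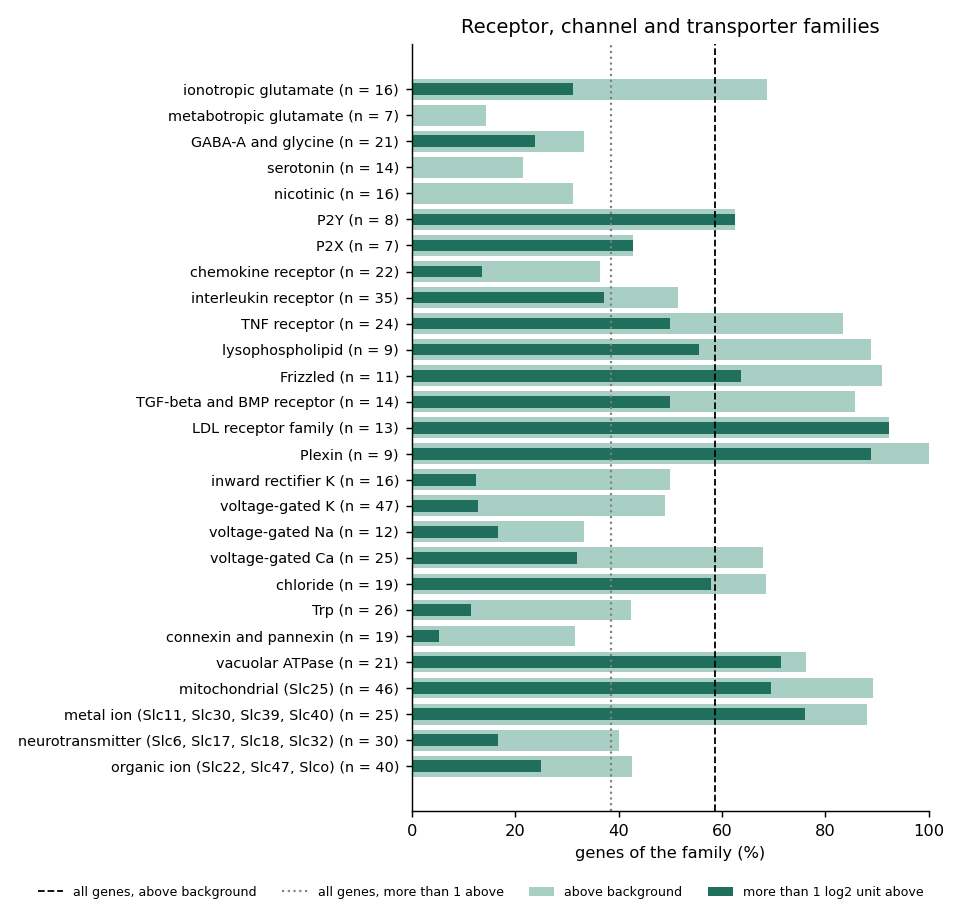
Share of the genes of each receptor, channel and transporter family above background (light bars) and more than 1 log2 unit above it (dark bars) on the control array, with the number of genes measured. The dashed and dotted lines mark the shares of all genes, 58.7% and 38.6%; plexin genes were all above background and metabotropic glutamate receptors were above it for 1 of 7.

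Of 490 transporters 318 (64.9%) were above background and 220 (44.9%) by more than 1 log2 unit, beside 58.7% and 38.6% of all genes. Transporters that carry glutamate and glutamine, a main task of astrocytes, were largely above background. Of 16 genes of glutamate and GABA uptake 13 were above background and 8 by more than 1 log2 unit. The amino acid transporters Slc38a1 and Slc38a3 had 12.07 and 11.41, Slc1a3 had 11.45 and glutamate dehydrogenase (Glud1) had 11.70. The GABA and betaine transporters Slc6a12 and Slc6a13 had 6.61 and 6.25. Slc16a1, which carries lactate, had 10.84, the taurine and creatine transporters Slc6a6 and Slc6a8 had 10.88 and 10.83, and the zinc transporter Slc39a12 had 11.06. Abca1, which loads lipid onto apolipoproteins, had 11.84. House-keeping families were broadly present, with 41 of 46 mitochondrial carriers, 22 of 25 metal transporters and 16 of 21 subunits of the vacuolar proton pump above background. Of 40 organic ion transporters, many of them specific to kidney or liver, 17 were. Of 12 aquaporins only Aqp4 was more than 1 log2 unit above background.

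Channels were above background for 130 of 247 genes, below the share of all genes, and by more than 1 log2 unit for 57. Channels of excitability differed by family. The family counted as voltage-gated calcium channels, which includes the Cacng genes, was above background for 17 of 25 and by more than 1 log2 unit for 8. Among these 8 were Cacng7, Cacng4 and Cacng8, at 11.27, 8.30 and 8.04. Of the pore subunits, only Cacna1a at 9.49 and Cacna1d at 8.83 were among them. Of 12 voltage-gated sodium channel genes 4 were above background, with the subunit Scn3b at 9.12 and the leak channel Nalcn at 8.55, and Scn3a had 6.24. Voltage-gated potassium channel genes were above for 23 of 47 and by more than 1 log2 unit for 6. Among the 6 were Kcnd3 at 8.98, Kcnh5 at 9.28 and Kcna4 with probe sets at 10.16 and 5.94. Glial and volume-regulating channels were seen. Kcnj16, which pairs with Kcnj10, had 8.11, the tandem-pore potassium channels Kcnk1 and Kcnk2 had 9.23 and 8.92, and all 5 Lrrc8 genes of the swelling-activated anion channel were above background, with Lrrc8a at 9.63. The tweety genes Ttyh1, Ttyh2 and Ttyh3 had 10.32, 9.55 and 10.47. Of 19 connexin and pannexin genes Gja1 alone was more than 1 log2 unit above background. Cacng7, an auxiliary subunit of AMPA receptors, had 11.27, and the mechanosensitive channel Piezo1 had 9.77.

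Secreted factors were above background for 179 of 368, below the share of all genes, and by more than 1 log2 unit for 82. Some groups were complete or nearly so. All 13 synapse-promoting or synapse-clearing factors of astrocytes were above background, 12 of them by more than 1 log2 unit, with a median of 9.49. Sparc, Sparcl1 (hevin) and Thbs1 had 12.39, 11.98 and 11.03, the glypicans Gpc4 and Gpc6 had 10.44 and 9.16, and the phagocytic receptors Megf10 and Mertk had 9.52 and 9.49. Lipid carriers and protease inhibitors were above for 18 of 19, with the phospholipid transfer protein Pltp at 12.04, clusterin (Clu) at 11.57, Apoe at 10.29 and cystatin C (Cst3) at 11.69 and 9.09. Rbp4 had 5.78. Metallothioneins Mt1, Mt2 and Mt3, which bind zinc and copper, had 12.12, 13.03 and 11.88.

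Growth factors differed by gene. Csf1, the survival factor of microglia, had 10.96, and Il34, the other ligand of Csf1r, had 7.04. The IGF system was seen for 9 of 10 genes, with Igfbp3 at 10.77 and Igf1 at 10.52. Bmp6 had 11.06, Tgfb1, Tgfb2 and Tgfb3 had 9.47, 8.96 and 9.24, and the ErbB ligands Hbegf and Nrg1 had 10.69 and 10.14. Of 12 neurotrophic factor genes 2 were more than 1 log2 unit above background, pleiotrophin (Ptn) at 10.41 and Clcf1 at 9.10. Bdnf had 6.72 and Gdnf 5.84. Of 19 Wnt genes 9 were above background, 2 by more than 1 log2 unit, and the Wnt inhibitor Sfrp1 had 10.79.

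Inflammatory ligands differed by family. CC chemokines were above background for 12 of 19 (63.2%), 5 (26.3%) by more than 1 log2 unit. CXC and CX3C chemokines were so for 9 of 17 (52.9%), 4 (23.5%) by more than 1 log2 unit. The shares of all genes were 58.7% and 38.6%. Of 40 interleukin genes 15 were above it, 3 by more than 1 log2 unit, Il18 at 8.38, Il33 at 8.20 and the receptor antagonist Il1rn at 7.69, while Il1b had 6.68. Of 15 TNF superfamily genes 3 were above background, with Tnf at 7.65. Ifng itself had 6.70. The chemokines Ccl3, Cxcl16, Cxcl14 and Cx3cl1 had 9.80, 10.15, 9.81 and 8.95, and Ccl2, Ccl5 and Cxcl10 had 7.76, 7.76 and 7.67. Serpina3n and Lcn2, genes of reactive astrocytes, had 11.32 and 8.98. Interferon alpha genes were above background for some members (Ifna1 at 9.01), and since these genes are near-identical copies their probe sets cannot be assigned with confidence.

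Matrix genes were above background for 117 of 201 (58.2%) and by more than 1 log2 unit for 66 (32.8%), at or below the shares of all genes. The class includes 33 Adam genes, of which 10 were above background and 8 by more than 1 log2 unit. The basement membrane was nearly complete, with 15 of 17 genes above background and 12 by more than 1 log2 unit. Lamb2, Lamc1, Nid2 and perlecan (Hspg2) had 9.96, 9.74, 9.41 and 9.87, and the collagen chains Col4a1 and Col4a2, which share 1 promoter, had 7.99 and 6.97. Lama1, the laminin of the pial surface, had 6.32. Interstitial and elastic fibre genes were above for 23 of 24 but by more than 1 log2 unit for 12. Fbln5 had 10.65 and elastin (Eln) had 6.88. Matricellular genes were above for 19 of 21, with Ccn1 at 12.18 and Ccn2 at 10.32 and 6.34.

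The brain's own matrix was seen in part. Ncan had 11.79 and 9.96, Ptprz1 had 11.26, Tnc had 10.92, Tnr had 8.67 and brevican (Bcan) had 8.47. The hyaluronan synthases Has1, Has2 and Has3 and the link protein Hapln1, which assemble perineuronal nets, had 5.75, 5.83, 6.44 and 5.30. Aggrecan (Acan) had 6.51. Matrix remodelling genes were clear, with Timp2 and Timp3 at 11.85 and 11.60, the heparan sulfate sulfatases Sulf2 and Sulf1 at 11.23 and 10.34, Mmp14 at 9.89 and the macrophage elastase Mmp12 at 9.47. The proteoglycan Prelp had 12.53 and 6.75 by its 2 probe sets, and biglycan (Bgn) had 11.07 and 8.29.

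The promoters of astrocyte and microglial marker genes held fewer CpG dinucleotides than those of most factors of the same lineage. This is given as a description of sequence with no test. CpG dinucleotides are depleted in most of the genome and kept in CpG islands, which cover the starts of genes used in many cells. The ratio of observed to expected CpG over the 300-base window had a median of 0.253 in 15 microglial genes and 0.329 in 22 astrocyte genes that were above background and had 1 window each. In 13 astrocyte lineage factors it was 0.819 and in 7 macrophage lineage factors 0.855, beside 0.763 in 27 proteasome genes. Other marker lists varied, with 0.236 in 4 perivascular macrophage genes and 0.386 in 10 fibroblast and leptomeningeal genes. It was higher in 13 smooth muscle and pericyte genes, at 0.546, and in 12 genes of radial glia and progenitors, at 0.625. The ranges overlapped, at 0.0658 to 0.448 in the microglial genes and 0.246 to 1.03 in the macrophage lineage factors. They also overlapped between the astrocyte genes, 0.0641 to 0.916, and the astrocyte lineage factors, 0.134 to 1.04. Slc1a3 and Sox2 are shown as 1 gene of each kind, with each CpG in capitals.
Slc1a3 promoter, GRCm38.p6, chr15:8710758-8711057, minus strand: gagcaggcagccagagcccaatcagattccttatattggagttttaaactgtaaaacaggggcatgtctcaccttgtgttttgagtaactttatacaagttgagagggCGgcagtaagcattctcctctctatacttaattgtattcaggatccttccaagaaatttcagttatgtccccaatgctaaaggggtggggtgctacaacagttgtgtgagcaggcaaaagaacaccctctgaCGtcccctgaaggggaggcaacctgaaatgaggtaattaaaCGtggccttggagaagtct
Sox2 promoter, GRCm38.p6, chr3:34649745-34650044, plus strand: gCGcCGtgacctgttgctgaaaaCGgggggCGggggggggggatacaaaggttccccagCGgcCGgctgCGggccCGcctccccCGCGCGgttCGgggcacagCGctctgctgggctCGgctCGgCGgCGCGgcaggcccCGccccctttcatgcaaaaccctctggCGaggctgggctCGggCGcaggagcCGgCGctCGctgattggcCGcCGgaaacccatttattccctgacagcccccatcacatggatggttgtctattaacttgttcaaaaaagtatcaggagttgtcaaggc
The Slc1a3 window (log2 signal 11.45) held 3 CpG and the Sox2 window (log2 signal 10.66) held 27, with ratios of 0.197 and 0.819. Over all 12837 protein-coding genes with 1 window, the median ratio was 0.218 in the 4979 genes not above background, 0.646 in the 2500 above by up to 1 log2 unit, 0.779 in the 2319 above by 1 to 2, 0.820 in the 1699 above by 2 to 3 and 0.816 in the 1340 above by more than 3. The letters TATAAA in the 50 bases before the start were found in 6.63% of the genes not above background and in 1.12% to 3.44% of the 4 other groups. Base composition of the probes was not analysed here, and its part in these values was not tested.

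**Figure D5:**
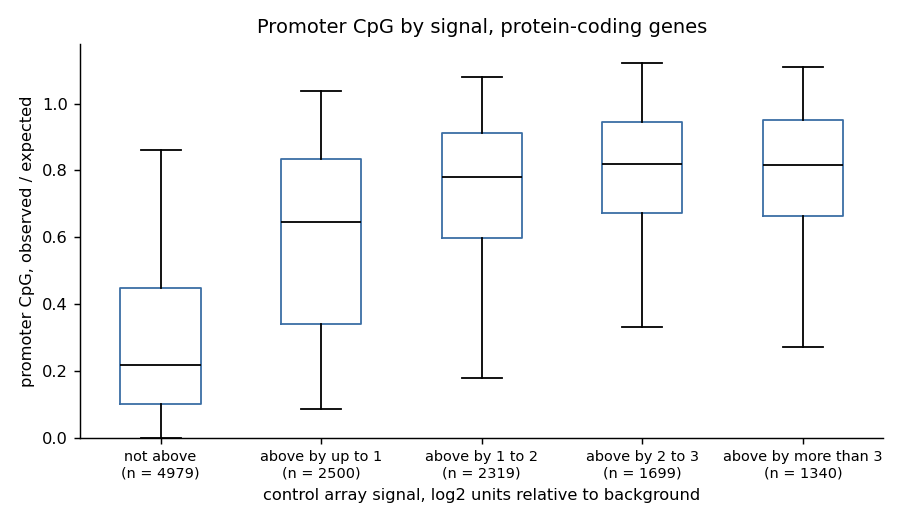
Ratio of observed to expected CpG in the promoter window of protein-coding genes, by their log2 signal above background on the control array (boxes are quartiles with the median, whiskers the 5th and 95th percentiles). The median was 0.218 in genes not above background and 0.816 in genes above by more than 3 log2 units.

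MicroRNAs silence messenger RNAs by pairing with their seed. Of 480 microRNA genes measured, 131 were above background, beside 58.7% of all genes, and 53 by more than 1 log2 unit, and 420 were matched to mature sequences of RefSeq. The probe sets are assigned to microRNA genes, and mature forms were not measured apart from their precursors and host transcripts. Mature forms that share seeds within families are shown, and 1 of them, miR-100-5p, belongs to a gene that was not above background. Capitals mark the seed, bases 2 to 8.
miR-9-5p: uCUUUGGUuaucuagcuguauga
miR-99a-5p: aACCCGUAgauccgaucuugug
miR-99b-5p: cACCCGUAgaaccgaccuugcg
miR-100-5p: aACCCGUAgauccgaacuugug
miR-181c-5p: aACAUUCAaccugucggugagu
miR-181d-5p: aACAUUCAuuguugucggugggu
let-7a-5p: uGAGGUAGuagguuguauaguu
let-7c-5p: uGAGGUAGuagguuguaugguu
All 3 genes of miR-9, a microRNA of neural progenitors, were above background, Mir9-1 at 8.57 and 4.99 by its 2 probe sets, Mir9-2 at 7.04 and Mir9-3 at 7.61. Mir99a and Mir99b, which share the seed ACCCGUA with Mir100, had 7.72 and 8.59, and Mir100 had 6.53. Mir181c and Mir181d, neighbours on chromosome 8 with the seed ACAUUCA, had 8.24 and 8.08. With the same seed, Mir181a-2 had 6.84, and Mir181a-1, at 2.96, was not above background. The let-7 genes Mirlet7a-1, Mirlet7c-1 and Mirlet7c-2, with the seed GAGGUAG, had 7.16, 7.16 and 7.45, and Mirlet7b with the same seed had 5.32. Mir124a-2 and Mir124a-3, of the neuronal microRNA, had 6.63 and 2.35, and Mir142, of blood cells, had 6.02. These genes were picked after their values were seen.

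Detection in the control array was set beside that in the whole series. Of 13549 probe sets with 1 symbol above background in the control array, 13062 (96.4%) were above the background of each of the 4 arrays, and all 8784 that were above by more than 1 log2 unit in the control were among them. The arrays were normalised together, so this is not a repeat of the measurement. Of 1082 genes with more than 1 probe set, 519 had probe sets on both sides of background, and 227 genes of the lists and families lay within 0.10 of it. Of 4 sex-linked genes measured, 3 were above background and 2 by more than 1 log2 unit. Xist, which is expressed from the inactive X chromosome, had 11.11. The Y-linked Eif2s3y and Uty had 7.93 and 7.50, and the Y-linked Kdm5d had 6.60 and was not above background. Transcripts of an inactive X were thus in the mixture, and of the Y-linked genes only Eif2s3y was more than 1 log2 unit above background.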

How the data were processed

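Total RNA (500 ng) of 3 mixed cultures was measured on 1 Affymetrix Mouse Gene ST array for each condition. The authors made log2 signals with RMA in Affymetrix Expression Console, and the deposited log2 values of the control array were used unchanged. The methods and the labels name different culture media, and a build for the probe sets is not given in the sources used here. Of 41345 probe sets, 23525 were annotated to 1 symbol (22184 genes), 1816 to several and 16004 to none. Genes were named from the first kind only and taken by their highest probe set. The 43 gene lists and 146 families, defined by symbol, were chosen with earlier results of these data known, and some family patterns were corrected after the files were read. Members of lists could be named freely, and those of families up to 8 above background by highest signal and up to 6 not above it; other genes were picked after their values were seen. With 1 array per condition no spread can be measured and no test was made. The number of arrays limits the precision. Promoter and microRNA sequences came from RefSeq (GRCm38.p6). Alternatives were the 99th and 90th percentiles as background, other silent gene families, 1 log2 unit more, detection in all 4 arrays, the mean of probe sets and the inclusion of probe sets with several symbols. The counting step was tested on simulated data. Python 3.11.15, numpy 2.4.6, pandas 2.3.3 and matplotlib 3.10.9 were used.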

Additional observations from a re-analysis of the deposited data

Results flagged for a closer look

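Probe sets outside the gene counts also carried signal above background in the control array. Of the 16004 probe sets without a gene symbol 5920 were above background, and of the 1816 with several symbols 946 were. Neither set was used for any named gene.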

How the results depend on the processing

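Counts kept within 1.5 times of those reported in 70 of 97 alternatives, and in every run with the 90th percentile, detection in all 4 arrays, the mean of probe sets or probe sets with several symbols. The 27 that moved came from higher background levels, namely the 99th percentile (7.62), the other silent families (7.64) and 1 log2 unit above background (7.69), in that order below. Named probe sets above background were 9593, 9536 and 9326 in place of 14495, smooth muscle and pericyte genes 11, 11 and 11 in place of 17, pan-neuronal genes 7, 7 and 7 in place of 16, and myelinating oligodendrocyte genes 4, 4 and 4 in place of 11. Transcription factors were 329, 327 and 315 in place of 557, receptors 179, 178 and 172 in place of 285, channels 61, 59 and 57 in place of 130, secreted factors 87, 87 and 82 in place of 179, and matrix genes 68, 67 and 66 in place of 117. By construction these levels count fewer genes. Counts of astrocyte, microglial, perivascular macrophage, fibroblast and transporter genes stayed within 1.5 times under all of them. No paired analysis was possible because each condition has 1 array. A gene near background cannot be told from one that is not expressed.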

Other observations

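Genes outside the lists, picked after their values were seen, also lay far above background in the control array. The lysosomal genes Ctsb, Ctsd and Psap had log2 signals of 13.24, 13.12 and 12.58, the Fc receptor subunit Fcer1g had 12.47, and the class I light chain B2m had 13.10. The iron storage gene Fth1 had 12.98, the prohormone-processing enzyme Cpe had 12.63, the membrane proteins Cd81 and Gpm6b had 13.07 and 12.30, and N-cadherin (Cdh2) had 12.31 and 10.06 by its 2 probe sets. Among genes with RefSeq biotypes, 12132 of 18989 protein-coding genes (63.9%), 469 of 1997 long noncoding RNA genes (23.5%), 129 of 478 microRNA genes (27.0%) and 63 of 81 small nucleolar RNA genes (77.8%) were above background.

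Some high signals came from genes of other tissues or of unknown role. Odf1 had 12.41 and 6.41 by its 2 probe sets, Vmn1r233, itself a receptor of the background set, had 12.05 and 4.29, and the predicted gene Gm12718 had 12.66 and 6.61. The microRNA genes Mir5099 and Mir449b had 12.49 and 12.14.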
